A study of Mus musculus with 17 samples.

Results

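Interferon receptors and the genes that damp cytokine signals were followed here in lymphocytes and epithelial cells of the mouse lacrimal gland. The members were 8 genes chosen by name: Ifnar1 and Ifnar2, Socs1, Socs2, Socs3 and Cish, and Usp18 and Isg15. Of these, 7 had a probe set of their own on the array, among 17097 genes measured in all, and Isg15 is treated separately below. The study sorted cells from male NOD mice, a strain whose lacrimal glands fill with lymphocytes and that serves as a model of Sjögren's syndrome. The groups were B cells of the gland (4 arrays), CD4 T cells of the gland (4), epithelial cells of the gland (3), and splenic B cells (3) and splenic CD4 T cells (3). The labels name no treatment, transgene or deletion for any group. Gland donors were 16 weeks old, whereas spleen donors are given as 16 weeks old by the sample labels and as 4 weeks old by the design text, so a difference between gland and spleen may also be one of age. In bulk samples like these, fewer cells of a type and less RNA per cell cannot be told apart. Gates were CD45- CD326+ for epithelium, CD3+ CD4+ for T cells and B220+ CD3- for B cells, the latter pair within CD45+ cells lacking NKp46, CD11b and CD11c. Whether replicates are separate animals is not stated, so the p-values reflect only the spread between these samples, and that spread may be technical.

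Type I interferons bind a receptor made of the chains IFNAR1 and IFNAR2, which carry the kinases TYK2 and JAK1 and activate transcription factors of the STAT family. Interferon-stimulated genes are switched on as a result, and some of them close the circuit. USP18 binds IFNAR2 and blocks further signalling, and it also removes ISG15, a ubiquitin-like protein, from the proteins it was joined to. The SOCS proteins and CIS, the product of Cish, form a family that is induced by STAT factors and acts back on receptors and Jak kinases. SOCS1 and SOCS3 can inhibit the kinases directly, and SOCS3 acts on receptors that contain the gp130 chain. SOCS2 and CIS are known as feedback inhibitors of growth hormone and of STAT5-activating cytokines such as IL-2.

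Promoter windows, from 250 bases before to 50 after a transcript start, were listed in RefSeq (GRCm38.p6) for 6 of the 8 members. They are shown for the inhibitors with the largest differences between the groups that had a window, Socs3 and Cish, and for Socs1, which was low throughout, because the families of sites that STAT factors and interferon use differ among them. Capitals mark matches to the GAS motif (TTCNNNGAA, bound by STAT dimers) or, in Socs1, to the core of the interferon-stimulated response element (ISRE; TTTC, any pair of bases, TTTC), both searched on both strands.
Socs3, chr11:117969317-117969616, minus strand: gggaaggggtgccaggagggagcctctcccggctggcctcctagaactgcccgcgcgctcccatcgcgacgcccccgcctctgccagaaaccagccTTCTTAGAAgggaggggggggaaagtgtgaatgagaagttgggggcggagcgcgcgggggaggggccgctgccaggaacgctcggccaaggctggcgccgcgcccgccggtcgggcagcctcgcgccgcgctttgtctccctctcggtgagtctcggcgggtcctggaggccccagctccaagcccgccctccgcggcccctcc
Cish, chr9:107296409-107296708, plus strand: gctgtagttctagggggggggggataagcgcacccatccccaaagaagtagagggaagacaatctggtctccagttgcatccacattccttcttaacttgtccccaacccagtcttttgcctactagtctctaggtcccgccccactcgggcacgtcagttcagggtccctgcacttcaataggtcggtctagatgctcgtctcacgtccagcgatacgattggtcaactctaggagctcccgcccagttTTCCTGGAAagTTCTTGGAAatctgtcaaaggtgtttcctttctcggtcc
Socs1, chr16:10785487-10785786, minus strand: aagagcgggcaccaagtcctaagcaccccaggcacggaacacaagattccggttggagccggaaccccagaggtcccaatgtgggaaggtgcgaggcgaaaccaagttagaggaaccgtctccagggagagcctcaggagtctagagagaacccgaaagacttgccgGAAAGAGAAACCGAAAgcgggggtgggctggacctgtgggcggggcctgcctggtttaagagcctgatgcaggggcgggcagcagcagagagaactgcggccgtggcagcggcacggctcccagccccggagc

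Cish held 2 GAS matches, starting at bases 1 and 12 after the start, and Socs3 held 1, starting at -154. The Socs3 window lies inside the annotated gene, whose 5′ end is at 117970336. Socs1 held 2 overlapping ISRE matches in the reverse orientation, beginning at -83 and -77. Isg15 held 3 such matches overlapping in a row, from -78 to -66, and Ifnar1 and Ifnar2 held 1 GAS match each, at -5 and -214. A GAS match was found in 8.3% and an ISRE match in 3.44% of 32851 windows of the same length. None of the 6 windows held the AP-1 motif TGANTCA, which 7.81% of all windows held. These matches are letters in a window and do not show that a factor was bound in these cells.

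Values are RMA log2 expression values, and a difference of 1 is a 2-fold change. The median of all values was 4.71, and array medians lay between 4.70 and 4.75. The table has no detection calls, so a level under that median is not shown to be above background, and a fold against it is only a ratio of deposited values. Levels of different genes are not comparable with each other. Lineage markers followed the sort labels, with some departures. Epithelial markers (7 of 8 measured) averaged 6.02 to 6.18 (B cells) and 6.20 to 6.43 (CD4 T cells) on gland arrays, against 3.65 to 4.13 in the spleen arrays and 8.97 to 9.63 in the epithelial sort. The epithelial sort held endothelial markers too (mean level 7.73 to 8.38 over 4 genes, against 3.30 to 4.74 in the lymphocytes). Its replicate 1 had the CD45 gene Ptprc at 9.62, with the other replicates between 2.36 and 2.42, and natural killer markers at 6.70, against 2.42 and 2.59. The same array had T cell markers at 6.18, against 3.69 and 3.50, and myeloid markers at 6.04, against 4.49 and 4.74. Its B cell markers were at 4.74, against 3.69 and 3.68. Spleen B cell replicate 3 carried neutrophil markers at 7.65, against 3.63 and 3.91. Immediate early genes, which also respond to cell handling, averaged 9.22 to 10.1 in all gland arrays and 6.10 to 6.35 in all spleen arrays. The labels describe enzyme digestion for the gland alone.

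In B cells 2 of the 7 measured members were higher in the gland, Socs3 and Usp18, and none was lower. In CD4 T cells 2 were higher, Socs2 and Usp18, and none was lower. A call required a fold change of 2 or more and a limma p under 0.05 after Benjamini-Hochberg adjustment across the whole array. By this rule 2.58% of all genes were higher and 1.6% lower in gland B cells, and 5.35% were higher and 1.62% lower in gland CD4 T cells. These shares stand beside every later count of genes called between gland and spleen. By the adjusted p alone, 5 of the 7 passed in each subset, all higher, beside 17.7% and 23.4% of all genes. The members' median difference was 0.50 for B cells and 0.72 for CD4 T cells, against 0.00 and -0.03 over all genes. With each array centred on its median, the median of all genes in CD4 T cells moved by -0.16, and the share of called genes that were higher fell from 76.7% to 64%. Socs2 and Usp18 were still called, but each of these calls was lost in other checks, given below with each gene.

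**Figure D1:**
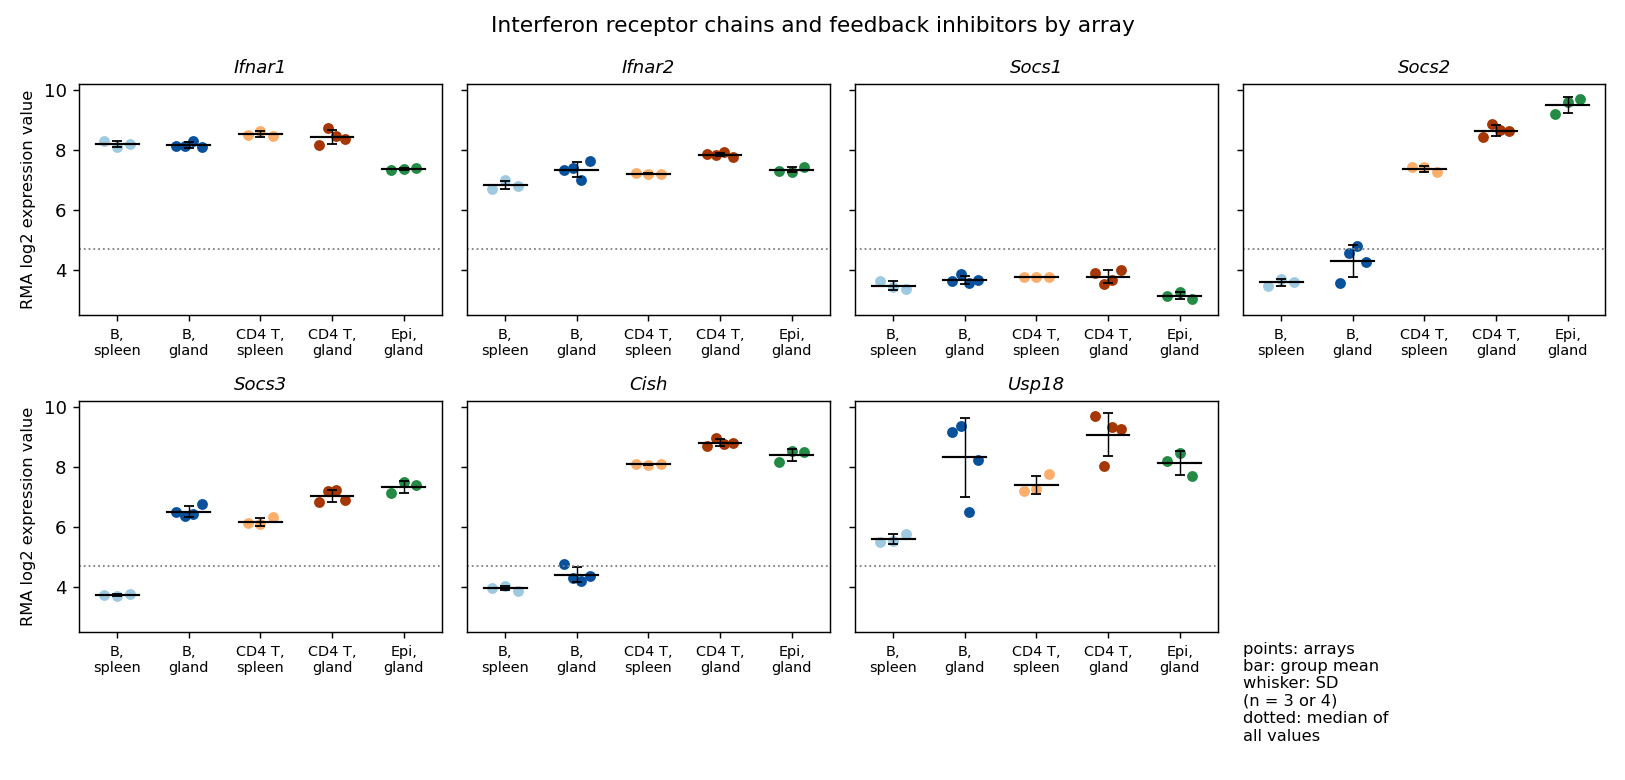
RMA log2 expression values of the 7 measured members (vertical axis) in the 5 sorted groups, with each array as a point, the group mean as a bar and the SD as whiskers (n = 3 or 4); the dotted line is the median of all values, 4.71. Socs2 and Cish are high in CD4 T cells and epithelium and low in B cells, Socs3 is low in spleen B cells alone, and the gland arrays of Usp18 are widely spread.

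**Figure D2:**
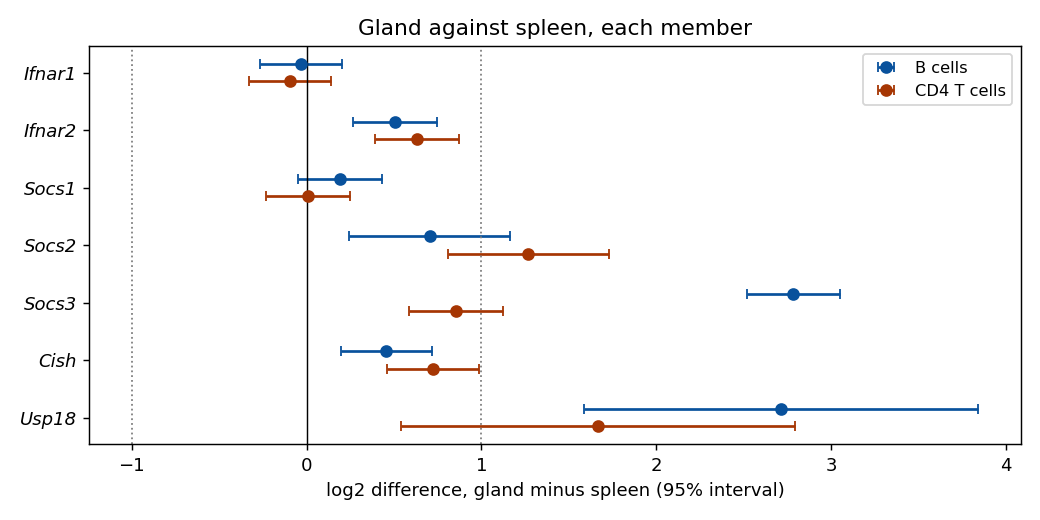
Log2 difference between gland and spleen (horizontal axis) with its 95% interval from the limma fit, for each member in either lymphocyte subset; dotted lines mark a 2-fold change. Socs3 differs most between the subsets, with 2.78 for B cells and 0.85 for CD4 T cells, while both Ifnar1 intervals include 0.

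The receptor chains differed little between gland and spleen. Ifnar1 (chr16:91485032-91510523) stood at 8.11, 8.13, 8.30 and 8.10 in the 4 arrays of gland B cells and at 8.30, 8.10 and 8.19 in spleen B cells. For CD4 T cells it read 8.16, 8.74, 8.46 and 8.36 in the gland and 8.49, 8.63 and 8.44 in the spleen. Gland and spleen overlapped in both subsets. The differences were -0.03 (95% interval -0.27 to 0.20) in B cells and -0.09 (-0.33 to 0.14) in CD4 T cells, so a 2-fold change in either direction lay outside both intervals. The epithelial sort was lowest, at 7.32, 7.37 and 7.41, below every lymphocyte array. Put in order, Ifnar1 ran from spleen CD4 T cells (8.52) through gland CD4 T cells (8.43), spleen B cells (8.20) and gland B cells (8.16) to epithelium (7.37). Only the last step passed the adjusted p (0.80, adjusted p = 1.02e-05 by limma), and it was under 2-fold.

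Ifnar2 (chr16:91372783-91405589) was higher in the gland by less than 2-fold in both subsets. The probe set with the highest mean, 1451462_PM_a_at, stood at 7.34, 7.41, 7.0 and 7.61 in gland B cells and at 6.71, 6.99 and 6.81 in spleen B cells. Among CD4 T cells it read 7.86, 7.84, 7.92 and 7.76 in the gland and 7.23, 7.21 and 7.20 in the spleen. No gland array overlapped a spleen array of the same subset, a pattern with the gland higher that 14.5% of all genes showed in the B cells and 16.8% in the T cells. The same shares stand beside each later member without overlap between gland and spleen. Differences were 0.50 (SE 0.11, adjusted p = 0.00557 by limma) in B cells and 0.63 (SE 0.11, adjusted p = 0.000608) in CD4 T cells. The other Ifnar2 probe sets did not show it. For 1427691_PM_a_at the differences were -0.04 (B cells) and 0.00 (CD4 T cells), and for 1440169_PM_x_at 0.22 and 0.03, with adjusted p from 0.456 to 0.995 over all probe sets. The Ifnar2 difference therefore rests on 1 of its 3 probe sets. In the order of levels for the kept probe set, gland CD4 T cells (7.84) came first, then gland B cells (7.34), epithelium (7.34), spleen CD4 T cells (7.21) and spleen B cells (6.84). Gland B cells and epithelium were 0.00 apart (adjusted p = 0.977), and epithelium and spleen CD4 T cells 0.12 apart (adjusted p = 0.391).

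**Figure D3:**
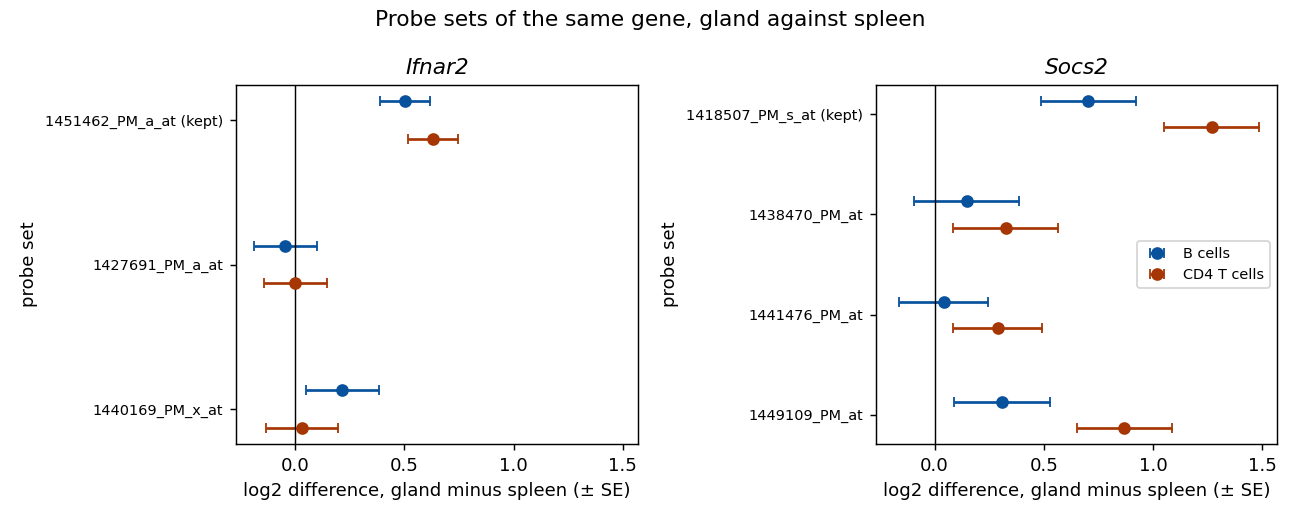
Log2 difference between gland and spleen (horizontal axis, with the SE) for every probe set of Ifnar2 and of Socs2 (vertical axis), for both lymphocyte subsets. The kept probe set has the largest difference of its gene in each case, and the other Ifnar2 probe sets lie between -0.04 and 0.22.

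Chains of the other interferon receptors had 1 of 4 genes called in CD4 T cells and none in B cells (0 of 4, where Ifnlr1 alone passed the adjusted p, at 0.69). Ifngr1, the ligand-binding chain of the interferon gamma receptor, was 8.23 ± 0.30 (SD, n = 4) in CD4 T cells from the gland against 6.90 ± 0.19 (n = 3) from the spleen, 2.51-fold higher (adjusted p = 2.6e-05 by limma). B cells read 6.83 ± 0.20 and 6.63 ± 0.06, and the rise was larger in CD4 T cells than in B cells by 1.12 (SE 0.24, adjusted p = 0.00576). Ifnlr1, the specific chain of the interferon lambda receptor, was 5.02-fold higher in epithelium than in gland lymphocytes, where it lay under the median of all values. Of 11 listed interferon genes 6 were measured. Among these 6 only Ifng was called, in CD4 T cells, with 10.48 ± 0.12 for the gland against 5.58 ± 0.43 for the spleen. Ifnb1 lay between 3.14 and 3.73 in every array, under the median of all values.

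Socs3 (chr11:117966079-117970336) rose in gland B cells. Gland B cell arrays read 6.50, 6.38, 6.42 and 6.77, and spleen B cell arrays 3.73, 3.70 and 3.76, with every gland array far above every spleen array. The difference was 2.78 (SE 0.13, adjusted p = 5.89e-10 by limma), a 6.89-fold ratio of deposited values whose spleen side lies under the median of all values. Socs3 in CD4 T cells stood at 6.83, 7.20, 7.23 and 6.89 in the gland and at 6.12, 6.09 and 6.34 in the spleen, without overlap. That difference was 0.85 (SE 0.13, adjusted p = 0.000104), or 1.81-fold, and missed the fold threshold.

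The gland difference of Socs3 was smaller in CD4 T cells than in B cells by 1.93 on the log2 scale (SE 0.18, 95% interval 1.55 to 2.31, adjusted p = 2.47e-06 by limma). It was the 1 member of 7 for which this test passed, beside 1.22% of all genes called lower. The subsets stood apart in the spleen, where B cells were lower than CD4 T cells by 2.45, and were close in the gland, where they were lower by 0.52 (adjusted p = 0.00261). Epithelium had the highest mean, at 7.12, 7.51 and 7.40, but overlapped gland CD4 T cells (0.31 apart, adjusted p = 0.0478 by limma). In order, epithelium (7.34), gland CD4 T cells (7.04), gland B cells (6.52) and spleen CD4 T cells (6.18) followed in small steps, and spleen B cells (3.73) lay far below (adjusted p = 6.47e-10 for the last step). Gland B cells and spleen CD4 T cells did not pass (adjusted p = 0.0533).

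Some epithelial markers and most immediate early genes were higher in the gland along with Socs3. Of 7 measured epithelial markers, 3 were called higher in gland B cells (Obp1a, Krt18 and Krt8) and 4 in gland CD4 T cells (these and Epcam). Socs3 in gland B cells was 0.83 below its level in epithelium. The 7 markers lay below theirs by 0.99 (Obp1a), 1.34 (Elf3), 3.07 (Krt19), 3.53 (Krt18), 4.26 (Krt8), 4.45 (Cldn4) and 4.57 (Epcam). Immediate early genes were called higher in 9 of 9 measured in B cells and in 8 of 9 in CD4 T cells. The part of epithelial RNA or of cell handling in the Socs3 values was not tested.

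Socs2 and Cish differed more between B and CD4 T cells than between gland and spleen. Socs2 (chr10:95383903-95417321) stood at 8.43, 8.84, 8.66 and 8.63 in gland and at 7.42, 7.44 and 7.26 in spleen CD4 T cells. Every gland array was above every spleen array, by a mean of 1.27 (SE 0.22, adjusted p = 0.00039 by limma), a 2.41-fold rise. Such a lack of overlap, with the gland higher, was shown by 16.8% of all genes in CD4 T cells. In B cells Socs2 was low, at 3.57, 4.58, 4.79 and 4.26 in the gland and at 3.47, 3.70 and 3.62 in the spleen. Gland replicate 1 lay among the spleen arrays, and the difference of 0.70 (SE 0.22, adjusted p = 0.0342) missed the fold threshold. The changes in the 2 subsets differed by 0.56 (95% interval -0.09 to 1.21, adjusted p = 0.311).

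Gland B cells lay 4.34 below gland CD4 T cells for Socs2, a 20.3-fold ratio (adjusted p = 5.57e-11 by limma), and spleen B cells 3.78 below spleen CD4 T cells (13.7-fold), both against B cell levels under the median of all values. The size depends on the probe set: the other Socs2 probe sets differed by -1.87, -0.80 and -0.60 in the gland and by -1.31, -0.62 and -0.35 in the spleen, and only 1449109_PM_at, the first of each, was called. Epithelium was highest of all, at 9.18, 9.60 and 9.69. The order was epithelium (9.49), gland CD4 T cells (8.64), spleen CD4 T cells (7.37), gland B cells (4.30) and spleen B cells (3.60). Each step passed the adjusted p, and the 2 steps from gland through spleen CD4 T cells to gland B cells were over 2-fold. The 3 other Socs2 probe sets had smaller differences in CD4 T cells, from 0.29 to 0.87, and none of them was called, with only 1449109_PM_at passing the adjusted p (0.00838). With a gene's probe sets averaged the rise was 0.69 and was not called.

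Cish (chr9:107296659-107302784) followed the same order of subsets. It stood at 8.71, 8.96, 8.76 and 8.81 in gland and at 8.09, 8.07 and 8.10 in spleen CD4 T cells, a difference of 0.72 (SE 0.12, adjusted p = 0.000371 by limma) or 1.65-fold, under the fold threshold. In B cells it was 4.79, 4.30, 4.20 and 4.38 in the gland and 3.97, 4.03 and 3.89 in the spleen, a difference of 0.46 (SE 0.12, adjusted p = 0.017). Neither pair of groups overlapped. B cells were lower than CD4 T cells by 4.39 in the gland (20.9-fold) and by 4.12 in the spleen (17.4-fold), again against B cell levels under the median of all values. Epithelium stood at 8.17, 8.53 and 8.48, between gland (8.81) and spleen (8.09) CD4 T cells, and did not pass against the spleen CD4 T cells (0.31, adjusted p = 0.0539).

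For B against CD4 T cells, the members called lower in B cells numbered 2 of 7 in the gland (Socs2 and Cish, where 5.97% of all genes were called lower) and 4 of 7 in the spleen (these with Socs3 and Usp18, where 4.52% were). Spleen CD4 T cells against gland B cells, the step at which Cish fell by 3.67 and Socs2 by 3.07, had adjusted p = 1.49e-12 and 1.19e-08 by limma, beside 5.32% of all genes called lower in gland B cells. These comparisons share arrays with each other and with those of gland against spleen. Gland B cells, with an epithelial marker level of 6.02 to 6.18, had Socs2 at 5.19 and Cish at 3.97 below their levels in epithelium. Gland CD4 T cells, with a marker level of 6.20 to 6.43, had Socs2 at 0.85 below epithelium and Cish at 0.42 above it. The part of epithelial RNA in the values of either subset was not tested.

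Among receptor chains upstream of these inhibitors, 10 of 13 listed genes were measured, and B cells of the gland had 4 lower and 2 higher than CD4 T cells of the gland, beside 5.97% and 3.73% of all genes. Il2rb and Il2ra, the signalling and high-affinity chains of the IL-2 receptor, were 60.7-fold and 25.7-fold lower, against B cell levels under the median of all values. For Il2ra the CD4 T cells averaged 9.16 ± 0.12 (n = 4, gland) and 8.50 ± 0.04 (n = 3, spleen), and the B cells 4.48 ± 0.30 and 5.24 ± 0.29. In epithelium 5 chains were lower than in gland lymphocytes and 3 higher, beside 9.81% and 14.9% of all genes. The higher ones were Ghr, the growth hormone receptor (51.5-fold), Osmr, the receptor of oncostatin M (47.4-fold), and Lifr, the receptor of leukaemia inhibitory factor (24-fold). The epithelial sort also held endothelial and fibroblast markers, and the part of such cells in these folds was not tested. Ghr was also called higher in the gland in B cells (3.51-fold) and in CD4 T cells (2.44-fold), along with epithelial markers, whose part in this was not tested. Of 6 measured STAT5 target genes, gland CD4 T cells had none higher and 2 lower, Bcl2 (by 1.30) and Myc (by 1.21), while gland B cells had 1 higher, Myc (3.15-fold), and none lower. Of 7 STAT3 target genes 6 were higher in gland CD4 T cells, led by Il10, Il21 and Junb, beside 5.35% of all genes. In gland B cells 2 were higher, Junb and Il10, beside 2.58% of all genes. Junb is also on the list of immediate early genes, and the part of cell handling in its values was not tested.

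Socs1 (chr16:10783808-10785536) was low in every group and called in neither subset. It stood at 3.63, 3.86, 3.56 and 3.67 in gland B cells, at 3.64, 3.45 and 3.37 in spleen B cells, at 3.92, 3.53, 3.67 and 4.01 in gland CD4 T cells, at 3.76, 3.79 and 3.78 in CD4 T cells of the spleen, and epithelium read 3.15, 3.29 and 3.03. All of these lie under the median of all values, so expression above background is not shown and a change could have gone unseen. The differences between gland and spleen were 0.19 (95% interval -0.05 to 0.43, adjusted p = 0.287 by limma) in B cells and 0.01 (-0.23 to 0.25, adjusted p = 0.977) in CD4 T cells. The latter turned negative with arrays centred (-0.15) or quantile normalized (-0.07). The lymphocyte groups overlapped at each step of the order, and epithelium lay lowest.

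Usp18 (chr6:121245906-121270917) rose in gland B cells, with a wide spread between arrays. It stood at 9.18, 9.35, 6.50 and 8.24 in the gland arrays and at 5.49, 5.55 and 5.78 in the spleen arrays. Every gland array was above every spleen array, but replicate 3 lay closest to them. The difference was 2.71 (SE 0.53, adjusted p = 0.00215 by limma), a 6.55-fold rise, and without replicate 3 it was 3.32. CD4 T cells had Usp18 at 9.69, 8.03, 9.32 and 9.26 in the gland and at 7.20, 7.28 and 7.75 in the spleen, with replicate 2 lowest in the gland. That difference was 1.67 (SE 0.53, adjusted p = 0.032), a 3.17-fold rise.

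The call in CD4 T cells was fragile. It was lost without gland replicate 1, 3 or 4 (adjusted p = 0.0852, 0.0728 and 0.0677 by limma) and without spleen replicate 1, 2 or 3 (0.103, 0.0935 and 0.0501), while without gland replicate 2, the low array, the difference was 2.01. The lower Usp18 level of spleen B than spleen CD4 T cells (by 1.81, adjusted p = 0.0299) was also lost without any 1 of the 6 spleen arrays, with adjusted p from 0.0543 to 0.105. The gland changes in CD4 T and B cells differed by -1.05 (95% interval -2.64 to 0.55, adjusted p = 0.476), an interval too wide to show whether they differ. Epithelium stood at 8.19, 8.47 and 7.69. In order, gland CD4 T cells (9.08), gland B cells (8.32), epithelium (8.12) and spleen CD4 T cells (7.41) overlapped at each step, and only the step down to spleen B cells (5.60) was called.

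Arrays with low Usp18 were low for other interferon-stimulated genes. A list of 32 such genes without Usp18 had 26 measured, and their mean level in gland B cells was 8.57, 8.50, 7.05 and 7.83, lowest in replicate 3 like Usp18. In gland CD4 T cells it was 8.95, 8.10, 8.65 and 8.45, lowest in replicate 2 like Usp18. The spleen arrays lay between 6.24 and 6.57 in B cells and between 6.94 and 7.24 in CD4 T cells. In B cells 19 of the 26 were called higher in the gland and none lower, led by Oas3, an antiviral RNA sensor (6.78-fold), Ifit1, which binds viral RNA (5.98-fold), and Oasl2 (5.38-fold). In CD4 T cells 16 were called higher and none lower, led by the antiviral GTPase gene Mx1 (13.6-fold), Oas1g (9.19-fold) and Rsad2, which encodes viperin (7.58-fold). Over all genes 2.58% were called higher in gland B cells and 5.35% in gland CD4 T cells. The median of the list was 1.64 for the B cells and 1.24 for the T cells, against 0.00 and -0.03 over all genes. The list was chosen with earlier results of these data known. Markers of plasmacytoid dendritic cells, the main makers of type I interferon, averaged 8.21, 8.11, 7.36 and 7.71 over the arrays of gland B cells, against 7.23 to 7.39 in spleen B cells, and B cells themselves express Spib and Tcf4 of that list. Of the 4 measured genes of that list only Ccr9 was called in gland B cells (4.37-fold higher), and Spib was at -0.37. Gland CD4 T cells, where Usp18 was also higher, had the list at 4.25 to 4.76, against 4.85 to 5.21 in the spleen, with Ccr9 called lower, at -2.32. The part of such cells in the Usp18 values was not tested.

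**Figure D4:**
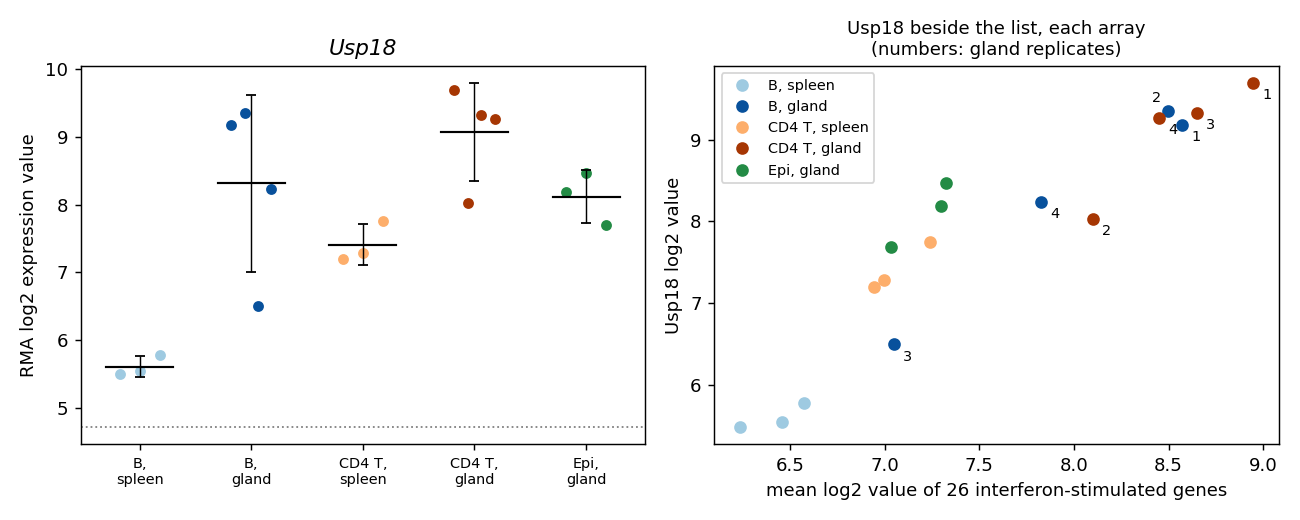
Left, Usp18 RMA log2 values by group, with each array as a point, the mean as a bar and the SD as whiskers. Right, Usp18 (vertical axis) against the mean log2 value of 26 interferon-stimulated genes (horizontal axis) in each array, with replicate numbers for the gland lymphocytes; gland B cell replicate 3 and gland CD4 T cell replicate 2 are the lowest of their groups on both axes.

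No probe set is listed for Isg15 (chr4:156199424-156200818), so its level is not given. A pair of probe sets is annotated to Gm9706, listed as a pseudogene on chromosome 17, and whether they also detect Isg15 transcripts was not tested. The brighter of them, 1431591_PM_s_at, stood at 7.88, 8.01, 6.70 and 7.22 in gland B cells and at 6.25, 6.42 and 6.30 in spleen B cells, a 2.18-fold rise (adjusted p = 0.00521 by limma). CD4 T cell arrays read 9.31, 8.45, 8.84 and 8.65 (gland) and 7.07, 7.18 and 7.28 (spleen), 3.11-fold higher (adjusted p = 0.000145). As for Usp18, replicate 3 was lowest in gland B cells and replicate 2 in gland CD4 T cells. The dimmer one, 1453939_PM_x_at, differed by 0.21 for B cells and 0.58 for CD4 T cells and was called in neither. In it replicate 3 was again lowest in gland B cells (4.58), but replicate 2 was highest in gland CD4 T cells (5.28).

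The enzymes that join ISG15 to proteins had 1 of 4 called, in CD4 T cells only. Ube2l6, the conjugating enzyme, was 3.63-fold higher in the gland (adjusted p = 3.31e-05 by limma) at levels under the median of all values, and its change was larger than in B cells by 1.18 (adjusted p = 0.04). In B cells none was called, with Ube2l6 at 0.68 and Herc6, the main ligase in mice, at 0.65 (adjusted p = 0.0678 and 0.0702). Uba7, the activating enzyme, was at 0.19 and 0.30, and Trim25 at 0.09 and -0.13.

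Kinases, STAT factors and other inhibitors were taken as further lists. Of 10 measured Jak kinases and STAT factors none was called in B cells, and 3 were higher in gland CD4 T cells, Jak3 (2.22-fold), Stat2 (2.11-fold) and Stat3 (2.03-fold). Of 15 other feedback inhibitors, among them Socs4 to Socs7, the Pias genes and phosphatases, none was called in B cells. In CD4 T cells 1 was higher, Ptpn11, which encodes the phosphatase SHP2 (2.18-fold, adjusted p = 1.52e-08 by limma), by 1.06 more than in B cells (adjusted p = 4.28e-06). The medians of these lists were 0.21 and 0.07 in B cells and 0.26 and 0.12 in CD4 T cells, against 0.00 and -0.03 over all genes.

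In the epithelial sort, Socs2 was the 1 member of 7 called against the averaged gland lymphocytes, and it was 8.1-fold higher (SE 0.19 on the log2 scale, adjusted p = 9.04e-10 by limma). A call required epithelium to lie outside both lymphocyte groups, and 14.9% of all genes were called higher. All 4 Socs2 probe sets were called higher, by 1.74 to 3.02. Of the Ifnar2 probe sets, 1440169_PM_x_at was called lower in epithelium, at -1.33 (adjusted p = 9.08e-07), while the kept one was at -0.26 and 1427691_PM_a_at at -0.39. Cish was 1.78 above the mean of the lymphocytes but below gland CD4 T cells. Ifnar1 was lower by 0.93 (adjusted p = 4.09e-07), Socs1 lower by 0.57 and Socs3 higher by 0.57, all under 2-fold. Usp18 differed by -0.58 (95% interval -1.58 to 0.42, adjusted p = 0.295), while 12 of the 26 interferon-stimulated genes were lower in epithelium and 2 higher, beside 9.81% of all genes lower. Without epithelial replicate 1, the array with Ptprc at 9.62, Socs2 was at 3.17, Ifnar1 at -0.91 and Socs3 at 0.68. Centring on array medians moved the median of all genes by -0.31 here and the share of called genes that were higher from 60.2% to 43.1%, and Ifnar1 was then called lower, at -1.24. Over all alternative settings listed below, the Socs3 difference ran from 0.25 to 0.68. The part of endothelial cells, fibroblasts, red cells and leukocytes in the epithelial values was not tested.

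For each member the genes with the most similar pattern were taken by Pearson correlation over the 17 arrays, among the 10145 genes whose mean exceeded the median of the table. The arrays fall into 5 groups that share cell type and tissue, so these values describe mostly the differences between groups. Usp18 was closest to Rtp4 (r = 0.976), Ifit3 (0.947) and Xaf1 (0.947), which are interferon-stimulated genes, and its deviations from the group means correlated with theirs at 0.956, 0.971 and 0.93. Cish was closest to Phactr2 (0.993), Tbc1d2b and Vps26b, for which deviations within groups correlated at 0.427, 0.524 and 0.661. Socs2 was closest to Raph1 (0.988), Arrdc4 and Rap2a, for which deviations within groups correlated at 0.00, 0.43 and -0.08. Socs3 was closest to Rgcc (0.931), the interferon-inducible GTPase gene Iigp1 (0.922) and Kctd10 (0.918), with deviations within groups correlated at -0.08, 0.19 and 0.65. The kept probe set of Ifnar2 was closest to Oas3 (0.928), Atp6v0e2 and Gm9706, with deviations correlated at 0.714, 0.372 and 0.444. Ifnar1 was closest to Panx1 (0.96), G3bp1 and Gpn3, with deviations at 0.366, 0.486 and 0.495. Socs1, under the median of all values in every array, was closest to Rbl1 (0.928), Stambpl1 and Mtap, with deviations at 0.758, 0.618 and 0.615.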

How the data were processed

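The authors deposited log2 values for 17 arrays and 45141 probe sets, made with Partek and RMA, per the submitters' processing notes; versions, settings and scan batches are not given in the sources used here. RNA was amplified and biotin-labelled, per the labels' protocols. Some RNA samples had a lower RNA integrity number than the others, and they cannot be matched to arrays. The part of RNA quality in the values was not tested. The number of arrays limits the precision, with a median standard error of 0.12 for gland against spleen.

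Probe sets were named from the platform's annotation, with symbols updated by gene identifier (28689 of 28898 probe sets with exactly 1 gene matched; 551 had several and 15588 none). For genes with several, the probe set of highest mean across the 17 arrays stood for the gene. Groups came from the sample titles. A mean per group was fitted to all 17097 genes with limma 3.58.1 in R 4.3.3 (lmFit, eBayes, 12 residual and 3.17 prior degrees of freedom), with 6 comparisons and all 10 pairwise contrasts. Dim genes were not filtered. Beside group means, errors are SD between arrays; beside differences, SE. The procedure was tested on simulated data. Figures were drawn with matplotlib 3.10.9.

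The members and gene lists were chosen with earlier results of these data known. All members are named; per list and comparison, no more than 3 called genes, those of largest change, or all genes of lists of at most 4; and the 3 genes most like each member. Alternatives were no fold minimum, a filter on dim genes, averaged probe sets, centring, quantile normalization, trend and robust moderation, array weights, replicate number as a block, fewer groups in the fit and leaving out each array. Tests of other probe sets were added after seeing the data. Same-numbered arrays were checked for pairing and did not deviate together in every pair.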

Additional observations from a re-analysis of the deposited data

Results flagged for a closer look

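Ifnar1 in gland B cell replicate 3 stood at 8.3, apart from the other gland B cell arrays at 8.10 to 8.13. Its gap to the nearest array was 0.837 of the range of the group, above Dixon's 95% critical value for groups of that size. This was 1 of 14 groups of 4 arrays examined, and chance gives such a gap in about 5% of groups. The array is the one with the lowest Usp18 level of its group.

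Socs3 changed between spleen and gland by different amounts in the 2 subsets, with a difference of -1.93 for CD4 T cells minus B cells (adjusted p = 2.47e-06 by limma). Leaving out any array kept it between -1.99 and -1.84.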

How the results depend on the processing

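Of 1116 values of the members under the alternatives, 1065 kept their direction and their side of the threshold, 21 were no longer called, 16 became called and 14 changed sign, all 14 of them in values that were not called. The Socs3 calls in B cells, in the spleen and in the difference of the changes, the Usp18 call in B cells, the Cish calls and the epithelial Socs2 call held under every alternative. Without a fold minimum 5 members each were called in the B cell, CD4 T cell and epithelium comparisons, 4 in B against CD4 T cells of the gland, and 15 in place of 5 of the 28 steps between neighbouring groups; over all genes the counts rose from 714 to 3019 in B cells, 1191 to 3995 in CD4 T cells, 869 to 1731 in the difference of the changes, 4217 to 10610 in epithelium, 1659 to 5196 in the gland and 1565 to 3843 in the spleen. In CD4 T cells 1 member was called with averaged probe sets (Usp18) and 1 with the replicate block (Socs2, as Usp18 had an adjusted p = 0.063); the block ended no other call. Leaving out an array gave 1 to 2 members there, 3 to 4 in the spleen, 4 to 6 steps between neighbours, and the same counts elsewhere. In epithelium 2 members were called with centring and 2 with quantile normalization. Centring also moved the share of called genes that were higher in the difference of the changes from 76.1% to 64.1%.

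Signs turned for Socs1 in CD4 T cells (-0.147 centred, -0.0658 quantile normalized, -0.0278 with the replicate block, -0.0679 to 0.0912 leaving out an array) and in gland B against CD4 T cells (0.0149 centred). They turned for Ifnar1 in B cells (0.00122 quantile normalized, -0.0823 to 0.0162 leaving out an array) and in the difference of the changes (-0.163 to 0.0312 leaving out an array). Ifnar2 turned in the difference of the changes (-0.00378 averaged, -0.00659 centred, -0.00678 quantile normalized, -0.184 with probe set 1440169_PM_x_at) and in B cells (-0.0433 with 1427691_PM_a_at). Of the Socs2 probe sets, 1438470_PM_at and 1441476_PM_at also lost the B against CD4 T cell calls. Correlations of deviations between same-numbered arrays ran from -0.493 to 0.221, so the numbers were not taken as pairs. Some differently numbered gland arrays correlated more. B cell replicates 2, 3 and 4 correlated with CD4 T cell replicates 1, 2 and 3 at 0.534, 0.385 and 0.315, but B cell replicate 1 with CD4 T cell replicate 4 at -0.148. The pair at 0.385 holds the array with the lowest Usp18 level of each gland subset. Whether gland B and CD4 T cell arrays share donors under other numbers was not tested, and the fit treated all arrays as independent.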
